A study of Arabidopsis thaliana with 12 samples.

Results

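Starch metabolism was examined through 10 genes of starch synthesis and breakdown in 14-day-old Arabidopsis thaliana seedlings that carry mutations in subunits of a chromatin remodelling complex. The genes were those encoding the beta-amylases BAM1 (AT3G23920), BAM3 (AT4G17090), BAM5 (AT4G15210), BAM6 (AT2G32290) and BAM9 (AT5G18670), the alpha-amylase AMY1 (AT4G25000), the granule-bound starch synthase GBSS1 (AT1G32900), the glucan water dikinase SEX1 (AT1G10760), the ADP-glucose pyrophosphorylase subunit APL3 (AT4G39210) and the glucan phosphorylase PHS2 (AT3G46970). They were selected on their annotated role and with their FPKM levels in the genotypes already known, so the differences below are a description and not a test. All 10 were found among the 31837 gene records of the deposited table, and all had a mean of at least 1 FPKM (a fragment count scaled to transcript length and library depth) over the genotypes. AMY1 was at 0.354 FPKM in the wild type and reached this mean only through the mutants, where it was higher. Its increases below are therefore not independent of this minimum.

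RNA of seedlings of the Col-0 ecotype, grown under long days, was sequenced in 12 libraries, 3 for each of 4 genotypes. These were the wild type (WT), the mutants brd1,2,13 and brm-1, and the combined mutant that carries the mutations of both (brm-1 brd1,2,13). BRM is the ATPase of a plant SWI/SNF complex that moves nucleosomes, and the bromodomain proteins BRD1, BRD2 and BRD13 are further subunits of it. The deposited table joined the libraries of a genotype into 1 FPKM value, so neither a spread between libraries nor a p value can be given, and the depth of the libraries is unknown. "Higher" and "lower" therefore compare 2 joined values, and a call means a ratio of at least 2.

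Starch is the main store of fixed carbon in leaves. It is built in the chloroplast during the day from ADP-glucose, which ADP-glucose pyrophosphorylase makes and starch synthases polymerise, and at night phosphorylation of the granule surface opens it to beta-amylases, which release maltose for export to the cytosol. Transcripts of many of these genes cycle over the day, and no source used here gives the hour of harvest.

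The targeted genes matched the labels. BRM was at 0.0954 FPKM in brm-1 and 0.12 where brm-1 is combined with brd1,2,13, whereas WT had 17.5 and brd1,2,13 had 18.5, and BRD13 was at 14.4 and 18.7 in WT and brm-1, against 0.223 and 0.0194 where it is mutated. BRD1 and BRD2 were reduced but present in brd1,2,13, at 4.36 and 3.05 FPKM against 12.7 and 7.04 in WT, so the mutant keeps part of these transcripts. In brm-1 they were above WT, BRD2 at 22.5 FPKM and BRD1 at 15.7, so the combined mutant against brm-1 starts from higher levels of both. The seedlings held leaf and root RNA, with 6 photosynthesis markers between 3139 and 16716 FPKM and 5 root hair and endodermis markers between 1.92 and 41.7. The lowest leaf value, 3139, was that of LHCB4.1 in WT, whose record joins 4 genes, so the leaf sums below include all of these. Summed over each list in the order WT, brm-1, brd1,2,13 and combined mutant, the leaf markers were at 39182, 35796, 37463 and 34651 FPKM, the root markers at 78.2, 50.1, 49.9 and 42.1, the 2 phloem markers at 100.3, 115, 112 and 92.8, and 4 guard cell markers at 62.3, 26.7, 48.5 and 28.1. All 4 guard cell markers (FAMA, MYB60, KAT1 and HT1) and all 5 root markers were below WT in each mutant, and none of the markers was at 0. In brd1,2,13, however, KAT1 and HT1 were close to WT, at 12.8 and 4.22 FPKM against 12.9 and 4.39. The part of these tissue markers in the differences below was not tested, and in seedling RNA fewer cells of a type cannot be told apart from less RNA per cell.

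The largest decrease among the 10 genes was that of GBSS1, which makes amylose, the largely unbranched fraction of starch, within the granule (TAIR10 chromosome 1, 11920390 to 11923766). GBSS1 was at 213 FPKM in WT, 54.7 in brm-1, 136.5 in brd1,2,13 and 43.5 in the combined mutant. It was thus the most abundant of the 10 transcripts in WT and no longer so in brm-1 or the combined mutant. The log2 ratio against WT was -1.96 in brm-1, -0.64 in brd1,2,13 and -2.29 in the combined mutant. In brm-1, 186 of 17612 records had a lower ratio. SS1, a soluble starch synthase, was between 52.5 and 62.0 FPKM in all genotypes, so that the level of GBSS1 went from 3.43 times that of SS1 in WT to 0.972 times in brm-1.

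APL3 encodes a large subunit of ADP-glucose pyrophosphorylase that is known to be induced by sugar (chromosome 4, 18259609 to 18263417). Its levels were 49.7 FPKM in WT, 34.3 in brm-1, 51.1 in brd1,2,13 and 27.0 in the combined mutant. WT and brd1,2,13 were close (log2 ratio 0.04), with both genotypes that carry brm-1 below them, and no ratio reached 2 (log2 ratios of -0.54 for brm-1 and -0.88 for the combined mutant against WT). APL3 was the less abundant partner of APL1, the main large subunit in leaves, at 0.236 times its level in WT and 0.167 times in the combined mutant.

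**Figure D1:**
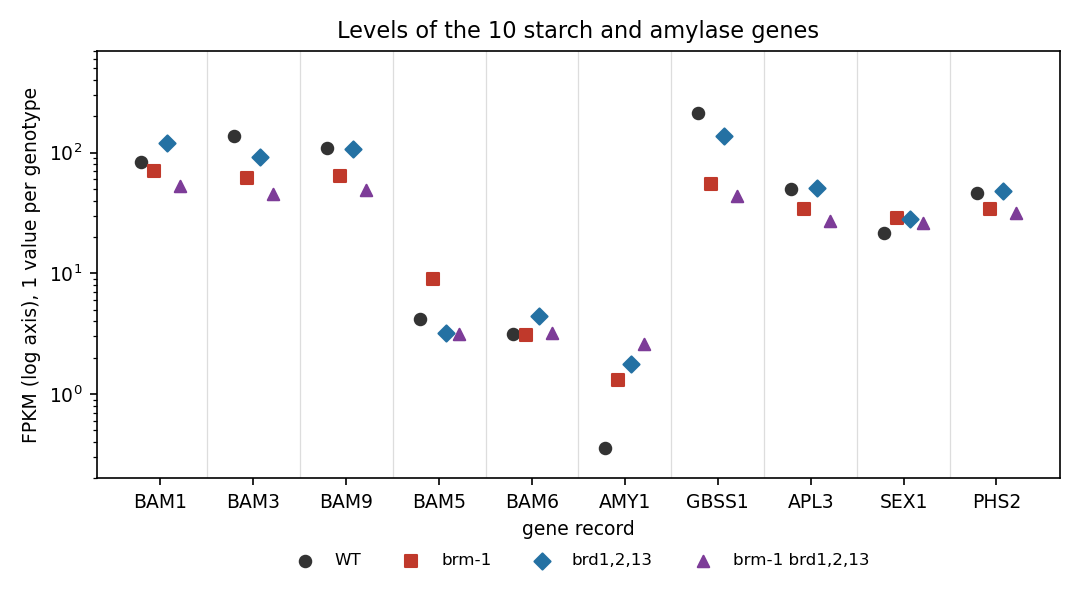
FPKM levels (log axis) of the 10 genes, with 1 point per gene and genotype and each point a value joined over 3 libraries, so no error is drawn. GBSS1, BAM3 and BAM9 lay above 100 FPKM in WT and below 50 in the combined mutant, whereas AMY1 went from 0.354 to 2.62.

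Among the beta-amylases, the plastid enzymes BAM1 and BAM3 release maltose from the granule, BAM3 being the main one in leaf mesophyll at night and BAM1 being known for activity in guard cells and under stress. BAM3 (chromosome 4) was at 138 FPKM in WT, 61.8 in brm-1, 92.2 in brd1,2,13 and 45.2 in the combined mutant. Every mutant was below WT, by a log2 ratio of -1.16 in brm-1, -0.58 in brd1,2,13 and -1.61 in the combined mutant. BAM1 (chromosome 3, 8641569 to 8644449) was at 84.3 FPKM in WT, 70.0 in brm-1, 119.8 in brd1,2,13 and 52.6 in the combined mutant. This gene was highest in brd1,2,13, 1.42 times WT, and the drop from there to the combined mutant was 2.28-fold (log2 ratio -1.19). BAM3 was 1.63 times as abundant as BAM1 in WT and less abundant than BAM1 in every mutant. The ratio was 0.883 in brm-1, 0.769 in brd1,2,13 and 0.858 in the combined mutant.

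BAM9 is a plastid member of the family that lacks catalytic activity and is known to promote starch breakdown. Its levels were 110.2 FPKM in WT, 64.3 in brm-1, 107 in brd1,2,13 and 48.9 in the combined mutant. As for APL3, WT and brd1,2,13 were close (log2 ratio -0.04) and both genotypes with brm-1 were lower, at -0.78 and -1.17 against WT. The nearest pattern to that of BAM9 among the other 9 genes was that of APL3, at a Euclidean distance of 0.386 over the 3 log2 ratios against WT. The table gives BAM3, BAM6 and BAM9 the same locus as a neighbouring record (AT4G17085, AT2G32280 and AT5G18680), so their values are uncertain. These neighbours went another way from BAM3 and BAM9, AT4G17085 being at 22.7 FPKM in WT and 37.3 in the combined mutant, and AT5G18680 between 20.2 and 22.2 in all genotypes.

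BAM5 is a beta-amylase outside the plastid that is known from the phloem. It was at 4.21 FPKM in WT, 8.94 in brm-1, 3.18 in brd1,2,13 and 3.17 in the combined mutant (chromosome 4, 8666338 to 8669470). Only brm-1 stood out, 2.12 times WT, and this increase was not seen when the BRD genes were mutated as well, since the combined mutant and brd1,2,13 differed by a log2 ratio of -0.0018. The fall from brm-1 to the combined mutant (log2 ratio -1.49) was exceeded by 22 of 17621 records. The phloem markers were the sucrose transporter gene SUC2 and the transcription factor gene APL. In the order WT, brm-1, brd1,2,13 and combined mutant, SUC2 was at 89.5, 95.1, 96.4 and 72.7 FPKM. APL was at 10.8, 19.7, 15.8 and 20.1 FPKM, so it was above WT also in the 2 genotypes in which BAM5 was below WT. BAM6, which is less well characterised, varied between 3.06 FPKM in brm-1 and 4.41 in brd1,2,13, with 3.16 in WT and 3.19 in the combined mutant, and was past 2-fold in none of the comparisons.

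**Figure D2:**
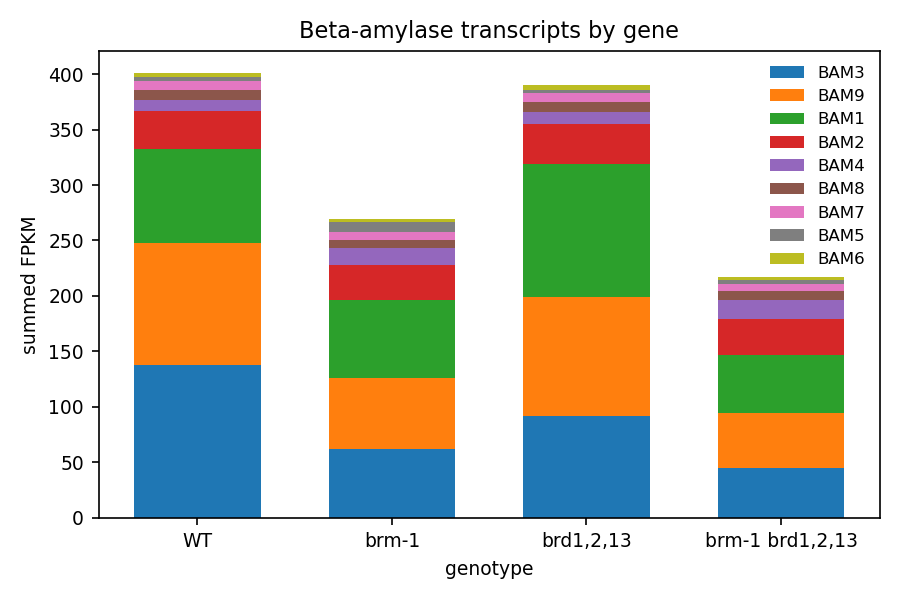
Summed FPKM of the 9 beta-amylase genes in each genotype, with 1 colour per gene and bars that start at 0. The sum was 401 in WT, 269.7 in brm-1, 390.5 in brd1,2,13 and 217 in the combined mutant.

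The summed FPKM of the beta-amylase family was lower in the genotypes with brm-1 than in WT. In brm-1, however, BAM4 and BAM5 were above WT, and the other genes of the family were below it. The sum over its 9 genes was 67.3% of WT in brm-1, 97.4% in brd1,2,13 and 54.2% in the combined mutant. BAM1, BAM3 and BAM9 held 82.8% of the sum in WT and 67.5% in the combined mutant. The 4 family members outside the 10 genes, BAM2, BAM4, BAM7 and BAM8, together stayed between 61.5 and 64.1 FPKM, so nearly all of the difference in the sum lay in BAM1, BAM3 and BAM9. The loci of BAM2, BAM3, BAM4, BAM6 and BAM9 overlap other records, so the sums are uncertain as well.

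AMY1 was the one gene of the 10 that was higher in all mutants by more than 2-fold. It encodes a secreted alpha-amylase known from stress and senescence rather than from the nightly breakdown of leaf starch (chromosome 4, 12851969 to 12853845). Its levels were 0.354 FPKM in WT, 1.31 in brm-1, 1.77 in brd1,2,13 and 2.62 in the combined mutant. Every mutant was above WT, with log2 ratios of 1.88, 2.32 and 2.88, but all 4 levels were low. With 1 FPKM added to each value the ratio in brm-1 was no longer 2-fold (log2 0.77). The plastid alpha-amylase AMY3 was at 27.1 to 30.9 FPKM and the cytosolic AMY2 at 13.1 to 15.6, so AMY1 reached 0.0964 times the level of AMY3 in the combined mutant.

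SEX1 phosphorylates the glucan chains of the granule, which starts starch breakdown (chromosome 1, 3581027 to 3590928). It was at 21.5 FPKM in WT, 28.6 in brm-1, 28.4 in brd1,2,13 and 26.2 in the combined mutant. All mutants were thus slightly above WT, by a log2 ratio of at most 0.42. PHS2, a cytosolic phosphorylase that acts on glucans made from exported maltose, shares its record with AT3G46980, so the value is that of both genes together. This record (chromosome 3, 17301376 to 17310007) was at 46.2 FPKM in WT, 34.2 in brm-1, 48.0 in brd1,2,13 and 31.4 in the combined mutant. Again the genotypes with brm-1 lay below the other two, with no ratio past 2-fold.

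To show what lies before the genes with the largest differences, the 250 bases upstream of the annotated start are given 5′ to 3′ for the genes that were at least 2-fold lower in the combined mutant and for AMY1. They were read from RefSeq's TAIR10.1 genome and annotation, at chr1:11923867-11924116 (minus strand) for GBSS1, chr4:9607403-9607652 (minus) for BAM3, chr5:6225706-6225955 (plus) for BAM9 and chr4:12853846-12854095 (minus) for AMY1. Capitals mark matches to the motifs searched.
GBSS1: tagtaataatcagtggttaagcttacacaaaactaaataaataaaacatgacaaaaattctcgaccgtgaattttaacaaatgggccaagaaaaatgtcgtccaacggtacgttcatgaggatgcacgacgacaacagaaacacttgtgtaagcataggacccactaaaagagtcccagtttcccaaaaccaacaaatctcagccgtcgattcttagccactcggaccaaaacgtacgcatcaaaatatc
BAM3: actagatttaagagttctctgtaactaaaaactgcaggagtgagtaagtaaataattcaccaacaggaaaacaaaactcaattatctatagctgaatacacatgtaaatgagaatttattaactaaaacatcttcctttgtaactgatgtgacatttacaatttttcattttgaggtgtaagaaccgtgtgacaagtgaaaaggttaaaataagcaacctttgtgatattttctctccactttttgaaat
BAM9: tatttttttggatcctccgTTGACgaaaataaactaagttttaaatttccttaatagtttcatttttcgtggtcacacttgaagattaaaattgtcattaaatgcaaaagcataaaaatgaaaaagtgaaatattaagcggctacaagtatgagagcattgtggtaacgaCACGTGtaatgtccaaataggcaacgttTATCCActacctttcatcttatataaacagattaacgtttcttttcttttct
AMY1: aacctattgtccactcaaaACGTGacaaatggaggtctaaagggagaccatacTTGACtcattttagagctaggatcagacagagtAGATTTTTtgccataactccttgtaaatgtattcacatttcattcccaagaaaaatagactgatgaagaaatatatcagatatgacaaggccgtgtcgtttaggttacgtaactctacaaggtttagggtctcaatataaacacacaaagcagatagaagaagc

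The motifs were searched on both strands of these windows. The G-box (CACGTG) stood before BAM9 and PHS2, that is 2 of the 10 genes, and in 6.49% of the windows of 27437 protein-coding genes. Its core, the abscisic acid response element core ACGTG, which every G-box contains, stood before BAM6, BAM9, AMY1, APL3 and PHS2, in 5 of 10 genes against 22.9% of all windows. TATCCA, known from sugar-regulated amylase promoters of rice, was found before BAM9 only (13.6% of all windows). The W-box core TTGAC stood before BAM1, BAM9, AMY1 and SEX1 (44.9% of all). Of motifs added after the levels were seen, the evening element AAATATCT stood before BAM6 (4.79%) and the CCA1-binding sequence AAAAATCT before AMY1 (6.69%). The I-box GATAAG stood before none of the 10 (12.3%). Among the 35 other starch genes described further on, the G-box stood before 10 and the ACGTG core before 13. TATCCA stood before 5 of these 35, the W-box core before 15, the shortened evening element before 7, the CCA1-binding sequence before 3 and the I-box before 6. The windows of GBSS1, BAM3 and BAM5 held none of the motifs searched. The windows depend on the annotation, since the record of GBSS1 starts 100 bases and that of BAM1 388 bases downstream of the annotated start. The record of BAM9, whose span is shared with its neighbour, starts inside its window, at 6225771, so the G-box and TATCCA before BAM9 lie within that record.

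In brm-1 against WT, which reads the mutation of BRM, 2 of the 10 genes were at least 2-fold higher (AMY1 and BAM5) and 2 at least 2-fold lower (GBSS1 and BAM3). Over all records with a mean of at least 1 FPKM, 6.33% were that much higher and 5.06% that much lower. Since the genes were selected with these values known, nothing is read from the difference between the shares. The median log2 ratio of the 10 genes was -0.35, and 7 of 10 were below 0, beside 8824 of 17612 records.

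In brd1,2,13 against WT, AMY1 alone was at least 2-fold higher and none of the 10 genes was 2-fold lower, beside 3.05% and 1.02% of all records. Their median was 0.05. GBSS1 and BAM3 were nevertheless at 0.642 and 0.67 times WT, and BAM1 at 1.42 times.

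The combined mutant differed from WT by at least 2-fold in 4 of the 10 genes. AMY1 was higher, and GBSS1, BAM3 and BAM9 were lower, beside 7.52% higher and 6.04% lower among all records, and the median was -0.62. The combined mutant had the lowest level of all genotypes in 7 of the 10 genes, the exceptions being BAM6, AMY1 and SEX1. For BAM5, 1 of the 7, the combined mutant and brd1,2,13 were near equal (3.17 and 3.18 FPKM). The share of all records that were lowest in the combined mutant was not counted, so nothing is read from this count.

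Mutation of the BRD genes in the brm-1 background was read from the combined mutant against brm-1. Here AMY1 was 2.00 times higher, just at the threshold, and BAM5 was 2.82-fold lower, beside 0.624% higher and 0.471% lower among all records. Of the 10 genes 8 were below 0, beside 8641 of 17621 records and 23 of the 35 other starch genes described further on, and their median was -0.34. The log2 ratios of BAM1, BAM3, BAM9, APL3 and GBSS1 lay between -0.45 and -0.33.

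Mutation of BRM in the brd1,2,13 background was read from the combined mutant against brd1,2,13. GBSS1 (-1.65), BAM1 (-1.19), BAM9 (-1.13) and BAM3 (-1.03) were at least 2-fold lower in the combined mutant than in brd1,2,13, on the log2 scale, beside 5.07% of all records, and none of the 10 was 2-fold higher beside 5.08%. The median was -0.77, and AMY1 was the one gene above 0 (0.57). The other 9 were below 0, beside 8880 of 17620 records and 25 of the 35 other starch genes, and BAM5 was near 0 (-0.0018). Of these 35 genes 1 was at least 2-fold lower and 0 higher. Since the 10 genes were selected with these values known, nothing is read from these counts. These comparisons share the values of WT, brd1,2,13 or the combined mutant and are not independent of each other.

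**Figure D3:**
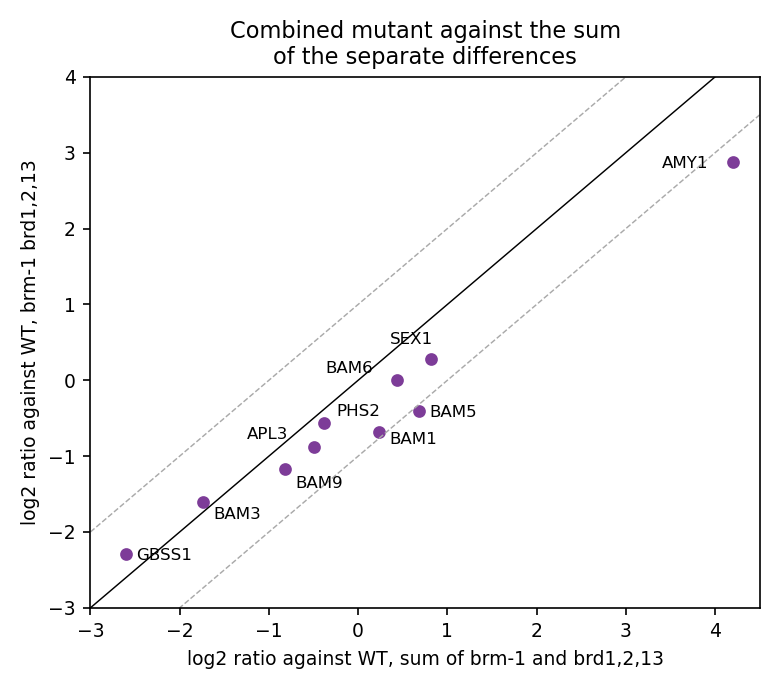
Log2 ratio of the combined mutant against WT (vertical) and the sum of the log2 ratios of brm-1 and brd1,2,13 against WT (horizontal), 1 point per gene, with a solid line where both are equal and dashed lines 1 above and below it. GBSS1 and BAM3 lay above the solid line, by 0.31 and 0.13, and the other 8 genes below it, AMY1 and BAM5 by more than 1. Not drawn are the 35 other starch genes described further on, of which 28 were below the sum, and all records, of which 8904 of 17602 were below it.

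The combined mutant was also set against the sum of the separate differences. GBSS1 and BAM3 were near that sum, with 43.5 and 45.2 FPKM measured and 35.1 and 41.4 at the sum. AMY1 and BAM5 were below it by 1.31 and 1.09 on the log2 scale, that is at 2.62 and 3.17 FPKM where the sum gives 6.51 and 6.75. BAM1 came next, at 52.6 FPKM where the sum gives 99.4, because it was higher in brd1,2,13 than in WT and lower in the combined mutant than in brm-1. Of the 10 genes 2 were at least 1 below the sum and none was 1 above it, beside 3.46% and 2.07% of all records.

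The wider pathway was read from 35 other genes of starch metabolism, listed by function. Against WT, 1 of 35 was 2-fold higher and 1 lower in brm-1 (beside 6.33% and 5.06% of all records), 1 higher and none lower in brd1,2,13 (beside 3.05% and 1.02%), and 1 higher and 1 lower in the combined mutant (beside 7.52% and 6.04%). Beside these shares the counts are no result about the list. Between the combined mutant and brm-1 none of the 35 was called, beside 0.624% higher and 0.471% lower, and their log2 ratios ran from -0.28 to 0.18.

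Among 13 other synthesis genes APL4, a further large subunit of ADP-glucose pyrophosphorylase, passed 2-fold. It was at 3.69 FPKM in brm-1 and at 3.63 with brd1,2,13 added, below the 7.76 of WT and the 7.49 of brd1,2,13, so that as for APL3 the genotypes with brm-1 were the lower ones. The catalytic small subunit gene APS1 stayed between 164.2 and 183.5 FPKM, and APL1 between 160.2 and 210.9. PTST1, whose protein brings GBSS1 to the granule, was at 7.39 FPKM in WT and 8.91 in brm-1, while GBSS1 itself was 3.89-fold lower there.

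DPE1, of 4 genes of maltose metabolism, and GPT2, of 2 transporter genes, passed 2-fold. DPE1, a plastid enzyme that recycles maltotriose, was at 4.96 FPKM in WT, 11.0 in brm-1, 6.24 in brd1,2,13 and 11.4 in the combined mutant, so both genotypes with brm-1 were more than 2-fold above WT. GPT2, a plastid glucose 6-phosphate transporter gene known to be induced by sugar, was at 7.94, 14.5, 16.2 and 12.4 FPKM in WT, brm-1, brd1,2,13 and the combined mutant, past 2-fold in brd1,2,13 only, and the combined mutant was 1.25 below the sum of the separate differences. The maltose exporter gene MEX1, whose record also holds AT5G17523, was at 7.17 FPKM in WT and 11.5 in brd1,2,13. BAM4, a further non-catalytic family member, was 1.59 times WT in brm-1 and 1.70 times in the combined mutant. The loci of BAM2, BAM4, AMY2, DPE1, MEX1, PHS1 and APL1 overlap other records, so their values are uncertain.

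Phosphorylation and debranching genes are given by their ranges. PWD, which phosphorylates glucans already marked by SEX1, was between 8.92 and 11.9 FPKM, and the glucan phosphatase gene SEX4 between 21.4 in WT and 27.9 in brd1,2,13. Over the 5 phosphorylation genes the log2 ratios of brm-1 against WT ran from -0.56 (LSF1) to 0.46 (LSF2), and over the 4 debranching genes from -0.17 to 0.38. PHS1, the plastid counterpart of PHS2, was at 30.6 FPKM in WT and 42.9 in brm-1, opposite in direction to the PHS2 record.

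**Figure D4:**
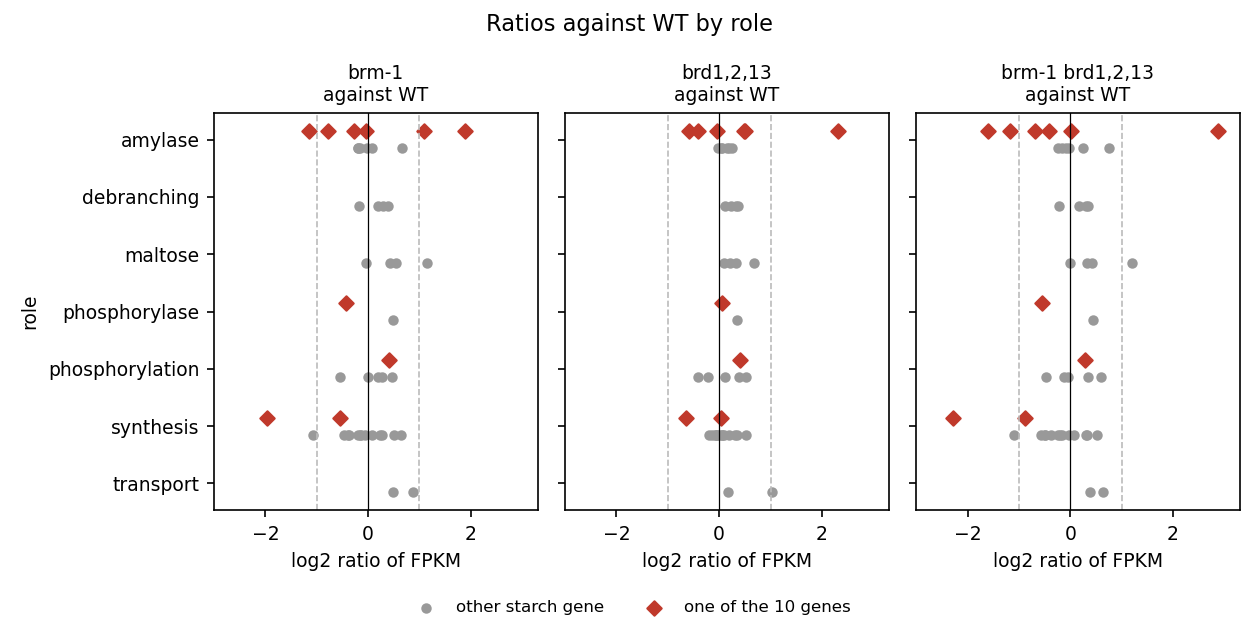
Log2 ratio of FPKM against WT in brm-1, brd1,2,13 and the combined mutant, by role, for the 10 genes (red diamonds) and 35 other starch genes (grey circles), with dashed lines at 2-fold. GBSS1 (-2.29 in the combined mutant) and AMY1 (2.88) lay furthest from 0, and the grey points past 2-fold are APL4, DPE1 and GPT2.

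The pattern of GBSS1 over the 3 mutants was compared with that of 11953 single-gene records with a mean of at least 5 FPKM. The nearest were NAS4, a nicotianamine synthase gene, at a distance of 0.131, and COL2, a CONSTANS-like gene, at 0.149. COL2 was at 118 FPKM in WT, 30.8 in brm-1, 83.6 in brd1,2,13 and 23.5 in the combined mutant. The morning-phased clock gene CCA1, added after the values of the starch genes were seen, was at 107 FPKM in WT, 50.6 in brm-1, 93.5 in brd1,2,13 and 43.8 in the combined mutant. Its close relative LHY, added with it, shares a record with AT1G01050 and was at 169, 143.2, 171.8 and 136 FPKM in the same order, or 0.847 times WT in brm-1 where CCA1 was at 0.473 times. The part of these clock genes in the levels of GBSS1, and that of the hour of harvest, was not tested. For AMY1 the nearest of 11954 records was AT5G38005, at 2.11, 8.72, 11.0 and 13.0 FPKM in WT, brm-1, brd1,2,13 and the combined mutant, at a distance of 0.314.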

How the data were processed

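RNA of 14-day-old seedlings was measured in 12 libraries, 3 per genotype, grouped by the sample titles. Reads were processed with TopHat, Cufflinks (version 2.1.1) and Cuffdiff (also 2.1.1) on TAIR10, according to the submitters' processing notes. The deposited table is the gene test output of Cuffdiff for 6 pairs of genotypes. Its FPKM values, computed by the authors as 1 value per genotype, were the only values used here. The table also holds the authors' fold changes, statistics, p and q values, which were not used. No source used here states how libraries were scaled or whether strand was used, so overlapping genes cannot be told apart.

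Log2 ratios were computed from FPKM with no pseudocount (Python 3.11.15, pandas 2.3.3). Ratios were taken over records with a mean of at least 1 FPKM over the genotypes (17649 records), leaving out 28 to 37 in which either value was 0. A call is a ratio of at least 2. The code was checked on simulated data. Alternatives were pseudocounts of 0.1 and 1, other filters, equal medians and a 1.5-fold threshold. All 10 genes are named, and of 35 other starch genes those past 2-fold and the close relatives of the 10 (PTST1, MEX1, SEX4, LSF1 and LSF2 were added after their values were seen). The genes and lists were chosen with earlier results of these data known. Coordinates are 1-based and follow the table. All 45 gene IDs were found in TAIR10.1, where 13165 of 29057 single-gene records had the same start or end. Amino acid sequences were not used here.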

Additional observations from a re-analysis of the deposited data

Results flagged for a closer look

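In 5 of the 10 genes the log2 ratio of a mutation had a different sign in the 2 backgrounds in which it was read, with 1 value close to 0 in BAM5, APL3 and PHS2. How many of all records have such a difference in sign was not counted, so the count of 5 is no result about these genes. Each difference sets single joined values against each other and was not tested. For BAM1, mutation of the BRD genes gave a log2 ratio of 0.51 in the presence of BRM and -0.41 in brm-1, a difference of -0.92. For BAM5, mutation of BRM gave 1.09 with the BRD genes intact and -0.0018 with them mutated, a difference of -1.09, so that BAM5 was higher in 1 background and near equal in the other, which is no reversal. SEX1 was higher with either mutation alone (0.40 and 0.42) and lower when the other was already present (-0.13 and -0.12), a difference of -0.54 in both readings. APL3 (0.04 and -0.34, a difference of -0.38) and PHS2 (0.05 and -0.12, a difference of -0.18) had such ratios for mutation of the BRD genes.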

How the results depend on the processing

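No member value past 2-fold changed sign under any of the alternatives run. With a pseudocount of 1 FPKM, the number of the 10 genes at least 2-fold higher was 0 in place of 2 in brm-1 against WT and 0 in place of 1 in the combined mutant against brm-1, and the number at least 1 below the sum of the separate differences was 0 in place of 2. A pseudocount of 0.1 FPKM, and equal medians of log2 FPKM, also gave 0 higher in the combined mutant against brm-1, where AMY1 is at the threshold. At a 1.5-fold threshold, 1 gene in place of 0 was lower in brd1,2,13 and 5 in place of 3 in the combined mutant, both against WT. The other 39 counts of the 10 genes under an alternative were within 1.5 times the main count. Of 10 percentages of all records past 2-fold, 4 moved by over 1.5 times with a minimum mean of 5 FPKM and 5 with no filter. In brd1,2,13 against WT, 3.05% higher became 1.79% and 5.53%, and 1.02% lower became 0.535% and 3.34%, with the stricter filter and with none. In the combined mutant against brm-1, 0.624% higher became 0.205% and 3.10%, and 0.471% lower became 0.183% and 2.65%. Against brd1,2,13, 5.07% lower became 7.65% with none. Equal medians shifted the genotypes by at most 0.035 on the log2 scale. No paired analysis was possible because the table holds 1 value per genotype, and for the same reason leaving out a replicate was not run. Depth per library is unknown, which limits AMY1, BAM5 and BAM6 most.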
